A study of Mus musculus with 19 samples.

Results

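Olfactory receptors (Olfr genes) and vomeronasal receptors (Vmn1r and Vmn2r genes) were examined as a set of promoters that are CpG-poor and lie in tandem clusters. A member was any gene whose symbol starts with Olfr, Vmn1r or Vmn2r and that has a curated RefSeq transcript on mm10, and its promoter was taken as the bases within 2 kb of an annotated start site, upstream or downstream. There were 1482 such genes among 26180 genes with a curated start site, and 1489 of 31647 start sites. Olfr contributed 1125 genes, Vmn1r 230 and Vmn2r 127. A further 583 receptor genes of the annotation have no curated transcript and were counted apart. Occupancy was taken from the peak lists of SOX3 ChIP-seq in the testis of mice at postnatal day 7, with 2 replicates that the study describes as independent biological replicates. The mice were of the C57BL/6J background, and the methods describe seminiferous tubules pooled from several mice, without the outer capsule. The methods name the SOX3 antibody sc-101155 for ChIP-seq. The study's reporting summary also lists AB5772 for ChIP without naming the samples it was used on. No treatment or mutant is named for these samples. Of 19 labelled samples 4 had a peak list analysed here, the 2 ChIP-seq replicates and 2 replicates of SOX3 ChIP-nexus, an exonuclease variant of ChIP. The lists held 58351 and 38832 ChIP-seq peaks, all with a q score (−10log10 of the adjusted p-value) above 30. A list holds only peaks past that threshold, over all cells of the tissue together, so a site bound in few cells cannot be told apart from an unbound site.

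Olfactory receptors are G protein-coupled receptors with which sensory neurons of the nose detect odorants, and each mature neuron expresses a single receptor allele. Vomeronasal receptors serve the vomeronasal organ, the Vmn1r family through a Gαi-type G protein and the Vmn2r family through a Gαo-type G protein. Outside the sensory neurons most receptor genes are silent, although a small number of olfactory receptors are known from testis, sperm, kidney and other tissues. SOX3 is an HMG-box transcription factor of undifferentiated spermatogonia. The lists hold no expression values, so whether any receptor was transcribed in these testes was not measured.

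Sequences are shown first because base composition enters each comparison. All are from GRCm38.p6, the assembly of mm10, written 5′ to 3′ on the strand of the gene, with each CpG dinucleotide in capitals. The first is the centre of the one receptor promoter region that had a peak in both replicates, and holds 3 CpGs in 250 bases.
Olfr159, centre of the shared peak, chr4:43771637-43771886, minus strand: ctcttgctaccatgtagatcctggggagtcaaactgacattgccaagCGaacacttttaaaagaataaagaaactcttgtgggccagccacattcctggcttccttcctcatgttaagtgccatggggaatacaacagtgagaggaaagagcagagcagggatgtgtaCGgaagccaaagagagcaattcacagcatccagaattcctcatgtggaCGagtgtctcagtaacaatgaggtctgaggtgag
The second is the RefSeq promoter (250 bases before to 50 after the start) with the highest q score of any receptor peak over it, and it holds 23 CpGs in 300 bases.
Vmn2r29, promoter, chr7:7278240-7278539, minus strand: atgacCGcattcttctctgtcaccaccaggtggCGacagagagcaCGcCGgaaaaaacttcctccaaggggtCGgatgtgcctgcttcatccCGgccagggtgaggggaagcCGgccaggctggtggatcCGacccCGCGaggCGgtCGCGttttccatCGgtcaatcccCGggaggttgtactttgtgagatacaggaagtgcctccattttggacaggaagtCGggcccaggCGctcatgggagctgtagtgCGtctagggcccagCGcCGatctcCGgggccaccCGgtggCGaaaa
The third is the promoter of Olfr16, an odorant receptor known from sperm, which had no peak. It holds 2 CpGs, the upper quartile of the receptor promoter sequences, whose median is 1, and is shown as a receptor promoter without a peak.
Olfr16, promoter, chr1:172956518-172956817, plus strand: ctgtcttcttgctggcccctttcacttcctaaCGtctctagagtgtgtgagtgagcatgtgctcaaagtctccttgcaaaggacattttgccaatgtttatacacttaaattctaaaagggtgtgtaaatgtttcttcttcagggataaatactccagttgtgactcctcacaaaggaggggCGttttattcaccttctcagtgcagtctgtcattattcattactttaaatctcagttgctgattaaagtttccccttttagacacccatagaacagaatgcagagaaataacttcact
The fourth is the centre of the most CpG-rich receptor peak of replicate 2, which overlaps the exon of Olfr94 and holds 19 CpGs in 250 bases.
Olfr94, centre of the replicate 2 peak, chr17:37197339-37197588, minus strand: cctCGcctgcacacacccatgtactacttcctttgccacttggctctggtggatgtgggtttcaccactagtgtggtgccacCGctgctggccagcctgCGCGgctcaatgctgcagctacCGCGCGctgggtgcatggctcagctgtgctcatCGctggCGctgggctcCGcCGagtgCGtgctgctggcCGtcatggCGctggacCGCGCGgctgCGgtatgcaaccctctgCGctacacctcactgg
The last belongs to no receptor. It is the promoter of Kdm1a, the histone demethylase needed for receptor choice in olfactory neurons, which holds 29 CpGs and had a peak in both replicates.
Kdm1a, promoter, chr4:136602674-136602973, minus strand: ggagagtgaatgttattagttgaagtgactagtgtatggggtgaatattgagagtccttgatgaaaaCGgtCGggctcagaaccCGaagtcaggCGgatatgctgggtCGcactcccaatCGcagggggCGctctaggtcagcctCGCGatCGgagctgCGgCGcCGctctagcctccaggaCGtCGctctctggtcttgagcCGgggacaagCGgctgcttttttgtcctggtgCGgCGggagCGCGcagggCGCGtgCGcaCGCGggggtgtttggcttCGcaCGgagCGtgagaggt

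The RefSeq promoter table matched 1271 of the 1489 receptor start sites and 1266 of the 1482 genes. Over its 1272 receptor sequences the median was 1 CpG in 300 bases (quartiles 0 and 2), and 31.0% held none. The median of the 31579 other promoter sequences was 8 CpGs, and 4.40% held none. Vmn2r29, with 23 CpGs, was the richest receptor sequence of the table.

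The same held over the whole window. The CpG ratio (observed over expected CpG) of receptor windows had a median of 0.126 (quartiles 0.0995 and 0.155, highest 0.480), against 0.368 for other start sites. By family the medians were 0.127 for Olfr, 0.117 for Vmn1r and 0.119 for Vmn2r. GC content was also lower, with a median of 36.7% in receptor windows and 48.5% in others. Receptor families share sequence, and reads that fit several places were assigned to one of them at random by the authors. The share of 50-mers in a window that occur once in the genome was therefore computed. Its median was 94.8% for receptor windows and 98.9% for others, and it was lowest for Vmn1r (82.7%). At least 90% of 50-mers were unique in 991 receptor windows. Many annotated receptor starts are not known transcription starts. In 1119 of the 1464 receptor start sites with a coding sequence (76.4%) the transcript began at the coding start, compared with 340 of 24568 other start sites (1.38%), so the true promoter of such a gene may lie outside its window. Only 1 receptor window held a start site of another kind of gene.

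SOX3 peaks were rare at receptor promoters. In replicate 1, 13 of 1482 receptor genes (0.877%, exact binomial 95% interval 0.468% to 1.495%) had a promoter peak, compared with 66.4% of the 24698 other genes. Replicate 2 also gave 13 of 1482 (0.877%, 0.468% to 1.495%), compared with 57.9% of other genes. The counts were equal but the genes were not. Olfr159 was the one receptor gene with a promoter peak in both replicates (1 of 1482, 0.0675%, interval 0.00171% to 0.375%), compared with 55.3% of other genes, and 25 receptor genes had one in at least 1 replicate. Intervals cover counting error only, and neighbouring receptors share sequence and chromatin, so intervals for independent genes are too narrow here. With 2 replicates no test between samples is possible, and no p-value is given.

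All families were low. Among Olfr genes 11 of 1125 (0.978%, interval 0.489% to 1.74%) had a peak in replicate 1 and 13 of 1125 (1.16%, 0.617% to 1.97%) in replicate 2. No Vmn1r promoter had a peak in either replicate. The count of 0 of 230 allows a share of up to 1.30% when the limit is set at 3 counts of the total, and up to 1.59% by the exact 95% interval. Both limits lie above the Olfr shares, so an Olfr-like share in Vmn1r was not excluded at this number of genes. At least 90% of 50-mers were unique in 96 of 230 Vmn1r windows (41.7%), 60 of 128 Vmn2r windows (46.9%) and 835 of 1131 Olfr windows (73.8%). In Vmn1r the lower quartile of unique 50-mers was 14.6%. Whether this affected the Vmn1r count was not tested. Of the 127 Vmn2r genes, 2 (1.57%, interval 0.191% to 5.57%) had a peak in replicate 1, Vmn2r29 and the transcribed pseudogene Vmn2r-ps54, and 0 in replicate 2, which allows up to 2.36% by 3 counts of the total and up to 2.86% by the exact interval. The intervals of the families overlap.

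**Figure D1:**
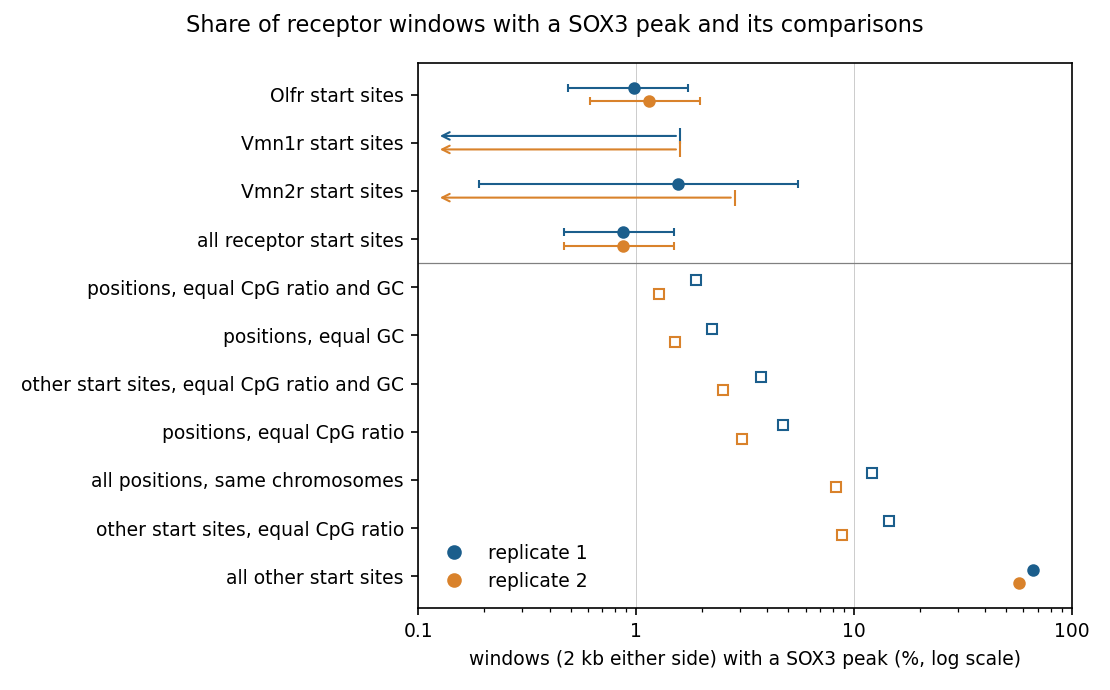
Share of windows (2 kb either side) with a SOX3 peak, in percent on a log scale, for each ChIP-seq replicate. Filled points are measured shares with exact 95% intervals, arrows mark a count of 0 with the upper bound of its interval, and open squares are comparison values. Receptor start sites sit at 0.873% in both replicates, all other start sites at 66.2% and 57.4%, and the comparison values come nearest to the receptors (1.89% and 1.27%) for positions of equal CpG ratio and GC content.

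To ask how much of this followed CpG content, other start sites were weighted to the CpG ratios of the receptor windows, in classes 0.05 wide. At equal CpG ratio 14.4% of other start sites had a peak in replicate 1 and 8.82% in replicate 2, compared with 0.873% of the 1489 receptor start sites in each. The difference was -10.7 percentage points ± 3.95 (SD, n = 2). Receptor windows with a CpG ratio under 0.1 (379 start sites) had no peak in either replicate, while 3.23% and 1.86% of the 805 other windows in that range did. At ratios of 0.1 to 0.2, where 992 receptor start sites lie, 3 (0.302%) and 8 (0.806%) had a peak. Of others, 10.7% and 5.49% had one at 0.1 to 0.15, where 687 of these receptor start sites lie, and 23.9% and 15.1% at 0.15 to 0.2. At 0.2 to 0.3, 6 and 3 of 95 receptor start sites (6.32% and 3.16%) had one, against 42.2% and 28.6%. Among the 23 receptor windows with a ratio of 0.3 or more, 4 and 2 (17.4% and 8.70%) had a peak. Of these 23, 12 lie at 0.3 to 0.35, where 70.2% and 54.9% of others had a peak, and 8 at 0.35 to 0.4, where 84.8% and 72.3% did. The share rose with the CpG ratio among receptors as it did among other genes.

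Placement on the chromosome gave a lower bar. Over all non-gap positions of the same chromosomes, weighted by where the receptors lie, 12.1% of windows of this width touched a replicate 1 peak and 8.26% a replicate 2 peak. This is the value that random placement approaches, and it corresponds to 181 and 123 of the 1489 start sites, where 13 were observed in each replicate. The difference was -9.33 points ± 2.74 (SD, n = 2). Of the 13 chromosomes with at least 20 receptor start sites, receptors were below the positions of their chromosome on all 13 in replicate 1 and on 12 in replicate 2. Chromosome 1 was the exception, where Olfr418 and Olfr427 made 2 of 29 start sites (6.90%) against 5.14% of positions. Chromosome 7 holds the most receptor start sites, and 5 and 2 of its 419 (1.19% and 0.477%) had a peak, against 13.3% and 8.896% of its positions. On chromosome 9 none of 137 had one in either replicate.

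These differences became smaller when GC content was held equal. When positions on a 500 bp grid of the same chromosomes were weighted to the GC content of the receptor windows, 2.23% and 1.51% touched a peak. With CpG ratio and GC content both held equal the shares were 1.89% and 1.27%, or 2.17 and 1.45 times the receptor share. In replicate 1 this lay above the interval of the receptor share (0.466% to 1.49%) and in replicate 2 inside it. The mean difference from such positions was -0.707 points. Other start sites of equal CpG ratio and GC content had a peak in 3.76% and 2.50% of cases, 4.28 and 2.85 times the receptor share of 0.877% (1482 start sites with a comparison class). This comparison was thin at low GC content. Under 34% GC lay 289 receptor and 112 other start sites, and at 34% to 36% lay 333 and 273. Against the 340 other start sites that lie at a coding start, as most receptor starts do, the shares at equal CpG ratio were 4.45% and 3.45%. For Vmn1r and Vmn2r, the shares of start sites and of positions of equal composition lay inside the exact interval of the family in both replicates. The closest case was Vmn1r in replicate 1, where 1.52% of other start sites had a peak against an exact upper bound of 1.60%, and this is above the limit of 1.30% by 3 counts. Vmn2r in replicate 1 was the one family value above its positions, with 1.56% against 0.976%, a difference of 0.587 points on 2 occupied start sites. For Olfr, other start sites of equal composition had peaks in 4.40% and 2.94%, above the intervals of 0.488% to 1.74% and 0.615% to 1.96%, while positions gave 2.27% and 1.51%, the second of which lay inside. The comparisons by GC content and by coding start were chosen after the data had been seen. The intervals used in them treat start sites as independent, so they are too narrow and a value outside one is no test.

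Most receptor windows lie where SOX3 peaks are rare in general. GC content was under 40% in 1198 receptor start sites (80.5%) but in 2059 other start sites (6.83%). In that range 1 and 5 receptor windows (0.0835% and 0.417%) had a peak, positions gave 0.535% and 0.371%, and other start sites gave 5.54% and 3.06%. At 40% GC or more, 12 and 8 of 291 receptor windows (4.12% and 2.75%) had a peak, positions gave 16.3% and 11.2%, and other start sites gave 70.7% and 61.4%. Receptor windows with a peak had a median GC content of 45.96% in replicate 1 and 41.7% in replicate 2, against 36.7% in receptor windows without a peak.

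**Figure D2:**
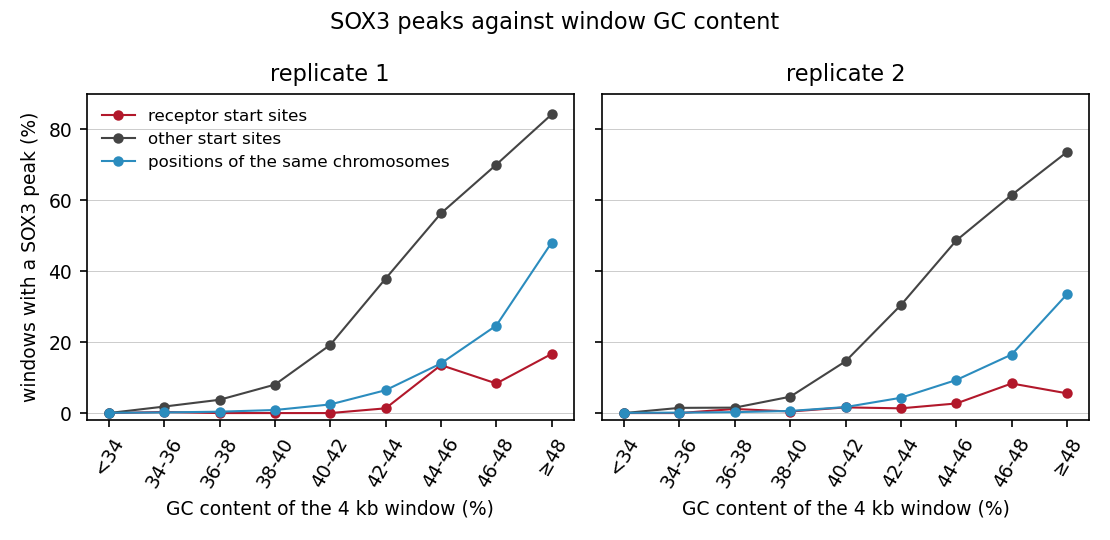
Windows with a SOX3 peak (percent, vertical axis) against the GC content of the window (classes in percent, horizontal axis) for receptor start sites, other start sites and positions of the same chromosomes, one panel for each replicate. All curves are at or under 1.83% below 36% GC and are higher at high GC content, and from 48% upward receptors reach 16.7% and 5.56% where other start sites reach 84.1% and 73.5%. The classes from 44% upward hold 37, 36 and 18 receptor start sites.

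The receptor peaks themselves were weak. Their median q score was 37.9 in replicate 1 (range 32.4 to 53.0, 13 peaks) and 31.9 in replicate 2 (31.2 to 51.3, 13 peaks), a mean of 34.9 ± 4.28 (SD, n = 2). Other promoter peaks had medians of 123 and 67.6, and peaks outside promoters 37.9 and 36.5. No receptor promoter peak had a q score above 60 in either replicate, whereas 69.4% and 56.6% of other promoter peaks did. Receptor peaks were also narrow, with median widths of 500 bp and 529 bp against 1493 bp and 1224 bp at other promoters. Peaks outside promoters were narrow as well, with median widths of 623 bp and 584 bp. For those with a CpG ratio under 0.3 the widths were 612 bp and 572 bp. Median log2 ratios of ChIP over input were 2.95 and 3.21, compared with 3.46 and 2.67 at other promoters, so by this measure the order differed between replicates. A peak of the other replicate overlapped 1 of 13 receptor peaks (7.69%) in each list. For other promoter peaks this share was 72.3% and 88.7%, and for peaks outside promoters with a CpG ratio under 0.3 it was 17.5% and 30.8%. With 13 receptor peaks in each list, 7.69% cannot be told apart from these last 2 shares.

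**Figure D3:**
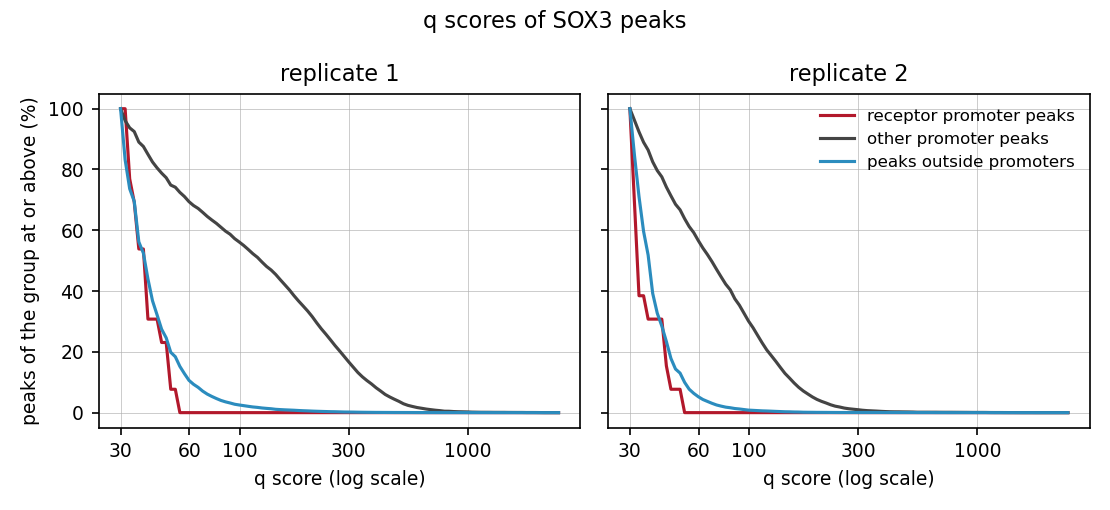
Peaks of each group at or above a given q score (percent, vertical axis) against the q score (horizontal log axis), one panel for each replicate. Receptor promoter peaks (13 in each replicate) end at 53.0 and 51.3 and lie near the curve of peaks outside promoters, while other promoter peaks extend to 2472 and 1744.

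Olfr159 (chromosome 4, minus strand, start at 43771009) carried a peak from 43771512 to 43772010 in replicate 1 and from 43771483 to 43772210 in replicate 2. The overlap of 499 bp was 100% of the first peak and 68.5% of the second, and both peaks lay upstream of the start, at nearest 503 bp and 474 bp from it. Their q scores were 32.4 and 51.3 and their log2 ratios 1.90 and 2.38. In replicate 1, 85.4% of all peaks had a higher q score, and in replicate 2 29.1% did. The region of overlap held 7 CpGs in 499 bases, and 1 copy of the SOX core words ACAAAG or ACAATG. The transcript of Olfr159 begins at its coding start in RefSeq, and 90.5% of the 50-mers of its window are unique.

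The other receptors with the highest q scores were each found in 1 replicate. Vmn2r29 led replicate 1 with a q score of 53.0, and its peak (chromosome 7, 7277935 to 7278689) covered the start site and had a CpG ratio of 0.799, while 52.2% of the 50-mers of its window were unique. Olfr315 and Olfr95 followed with q scores of 48.5 each and Olfr666 with 44.8. The Olfr315 peak covered its start, and those of Olfr95 and Olfr666 lay downstream and overlapped an exon of the gene. Olfr1342, Olfr463 and Olfr527 shared the next value, 37.9. In replicate 2 the order after Olfr159 was Olfr1128 (43.7), Olfr94 (42.4), Olfr368 (41.9) and Olfr1270 (34.8), and all 4 peaks lay downstream of the start over an exon of the receptor. The Olfr94 peak had a CpG ratio of 0.813, the Olfr1128 peak 0.149. Identical q scores recurred. The value 37.9 of those 3 replicate 1 receptors was carried by 1782 peaks of that list, and 4 receptors of replicate 2 (Olfr314, Olfr418, Olfr455 and Olfr1339) shared a value of 31.2 with 1790 peaks in all. These 4, like Olfr418 and Olfr427 above and the receptors named for other annotations and windows, were picked after their values were seen.

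Most receptor peaks did not cover the annotated start. In replicate 1, 3 of 13 covered the start, 5 lay upstream and 5 downstream, and 6 overlapped an exon of the receptor itself. The Olfr1342 peak, counted as upstream, covered the 5′ end of its gene model at 118693034. In replicate 2, 1 covered the start, 2 lay upstream and 10 downstream, and 11 overlapped the receptor's own exon. These shares were not computed for other promoter peaks, so whether they are particular to receptors was not tested. Peaks anywhere in the annotated gene body were found at 12 and 15 of the 1482 receptors (0.810% and 1.01%), compared with 70.2% and 62.8% of other genes, and at 2 in both, Vmn1r4 and, at sites that did not overlap, Olfr1358. The median gene length was 0.951 kb for receptors and 15.6 kb for others.

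Receptor start sites showed no peak of coverage at the start. At no distance within 20 kb were more than 0.604% of receptor start sites covered by a peak in either replicate, a value reached 750 bp downstream in replicate 2 and 7250 bp and 16000 bp downstream in replicate 1. Other start sites of equal CpG ratio reached 6.83% and 3.69% at the start and were not under 2.35% and 1.02% at every distance examined. GC content was not held equal in this profile. The nearest peak lay at a median distance of 242 kb from a receptor start in replicate 1 and 245 kb in replicate 2, and 71.7% and 72.7% of receptor starts were over 100 kb from any peak. Among other start sites 9.56% and 11.7% were that far. Median distances were 239 kb and 230 kb for Olfr, 251 kb and 268 kb for Vmn1r, and 296 kb and 283 kb for Vmn2r.

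**Figure D4:**
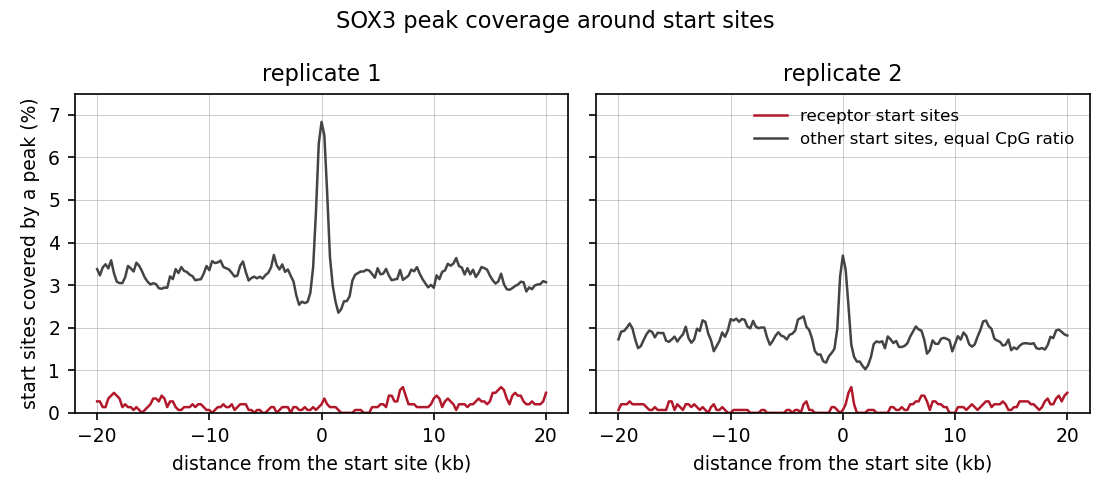
Start sites covered by a SOX3 peak (percent, vertical axis) against distance from the start site (kb, negative values upstream), in steps of 250 bp, for receptor start sites and for other start sites weighted to equal CpG ratio, one panel for each replicate. Other start sites rise to 6.83% and 3.69% at 0, and receptor start sites stay at or under 0.604% throughout. GC content was not held equal.

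Among 14 receptors with known roles, 0 had a promoter peak in either replicate. The share over all receptors was 0.877%, from which 0 of 14 cannot be distinguished. For Olfr16, known from sperm, the nearest peaks were 323 kb and 314 kb away. Olfr78, a receptor of kidney and carotid body that responds to short-chain fatty acids, had its nearest peaks at 71.8 kb and 15.5 kb, and Olfr558 at 14.6 kb and 14.7 kb. Olfr544, an azelaic acid receptor also known outside the nose, was nearest to a peak of the 14, at 7.10 kb and 6.83 kb. Olfr1393, a kidney receptor, lay 17.9 kb and 19.3 kb from a peak. For the odorant receptors most used to study receptor choice the distances were 62.1 kb and 47.5 kb for Olfr151, 43.3 kb and 28.8 kb for Olfr160, and 165 kb and 174 kb for Olfr1507. Olfr2, an octanal receptor, lay 164 kb and 206 kb away, Olfr17 69.4 kb and 112 kb, and Olfr73, a eugenol receptor, 973 kb and 490 kb. Among pheromone receptors the distances were 41.2 kb and 18.7 kb for Vmn2r1, 239.6 kb and 371 kb for Vmn2r26, and 153 kb and 156 kb for Vmn2r116, the receptor of the tear peptide exocrine gland-secreting peptide.

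The clusters as a whole held few peaks. Runs of at least 2 receptor genes with gaps of up to 1 Mb made 51 clusters with 1465 of the 1482 genes and 61.8 Mb. Peak density inside was 6.32 per Mb in replicate 1 and 4.61 per Mb in replicate 2, compared with 23.6 and 15.7 per Mb in the rest of the same chromosomes, a ratio of 0.280 ± 0.0182 (SD, n = 2). With gaps of up to 200 kb the ratio was 0.0904. In 13 clusters neither replicate had a peak, and 45 of 51 were below the density of their chromosome in both. The cluster with the most receptor genes, on chromosome 2 (85330967 to 90401674, 226 Olfr genes from Olfr987 to Olfr1274), held 1 and 2 peaks in 5.07 Mb. The longest, on chromosome 7 from Vmn1r55 to Vmn1r89 (72 receptor and 57 other genes), held 65 and 41 peaks in 8.02 Mb. The chromosome 7 cluster from Vmn1r91 to Vmn1r183 (87 Vmn1r genes) held none in 3.90 Mb in either replicate. By contrast the chromosome 13 cluster that begins at Olfr1370, with 12 Olfr and 36 Vmn1r genes and 41 other genes, held 61 and 40 peaks (28.0 and 18.4 per Mb against 16.9 and 11.2 over the chromosome), and 1 and 0 of its receptors had a promoter peak.

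**Figure D5:**
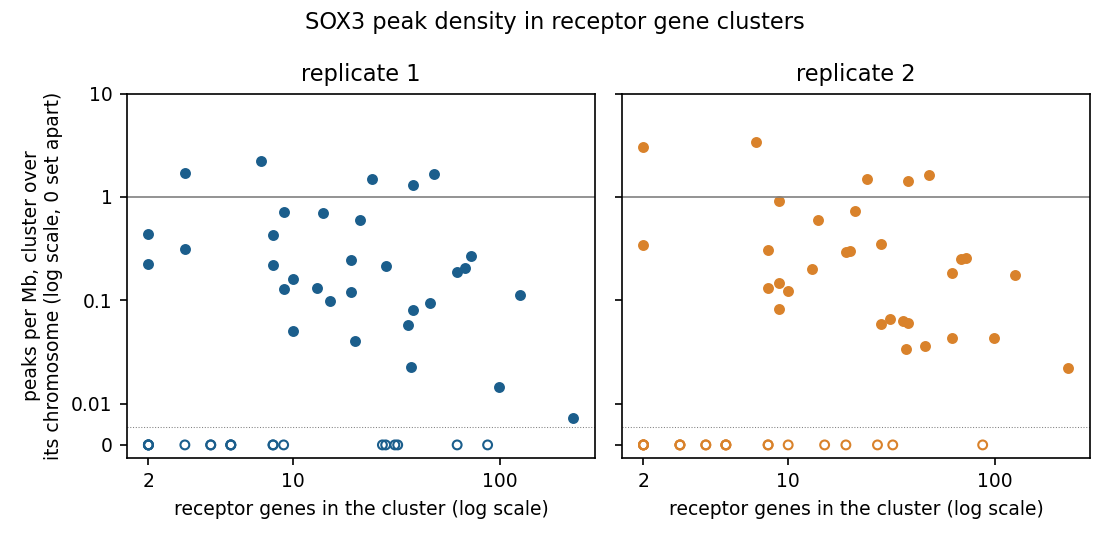
Peak density of each of the 51 receptor clusters divided by the density of its chromosome (vertical log axis, clusters without a peak set apart as open circles at 0) against the number of receptor genes in the cluster (horizontal log axis), one panel for each replicate. In each replicate 46 clusters lie below the line at 1, and 19 and 20 clusters hold no peak.

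Other genes inside the same clusters were often occupied. Of 366 such genes, 185 (50.5%) had a promoter peak in replicate 1, 151 (41.3%) in replicate 2 and 146 in both, compared with 66.7% and 58.1% of genes outside. With a CpG ratio of 0.3 or more, 168 and 155 of 179 of their start sites (93.9% and 86.6%) had a peak, against 90.2% and 82.1% outside the clusters. Under 0.3 the shares were 54 and 29 of 252 (21.4% and 11.5%), against 29.4% and 19.4% outside. Of the peaks inside clusters 42.5% and 47.4% lay at start sites of these other genes, compared with 28.0% and 35.0% of each whole list. Positions inside clusters also had a lower GC content (median 39.2% against 41.3%). At equal GC content 4.09% and 2.78% of positions outside clusters were within 2 kb of a peak, compared with 2.995% and 2.13% inside, a ratio of 0.733 and 0.765 in place of 0.291 and 0.302 without that adjustment. Away from start sites of any gene by more than 2 kb, the ratio at equal GC content was 0.611 and 0.615.

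The genes through which receptors act were occupied more often, and they are richer in CpG. The list held 21 genes with a median CpG ratio of 0.453, and 14 (66.7%) had a promoter peak in replicate 1, 10 (47.6%) in replicate 2 and 9 in both, near the 66.4% and 57.9% of all other genes. Among 12 transduction genes, 7 and 5 had a peak. Adcy3, the adenylyl cyclase of olfactory cilia, had q scores of 142 and 80.0, and Gnai2, the G protein subunit coupled to Vmn1r receptors, 505 and 126. Gng13 and Ric8b, a G protein subunit and an exchange factor, also had peaks in both (176 and 69.3 for Gng13, 180 and 96.2 for Ric8b). Gnao1, coupled to Vmn2r receptors, had a peak of 69.8 in replicate 1 and none within 2 kb in replicate 2, where the nearest was 2081 bp away. Omp (67.9) and Trpc2 (51.8), the vomeronasal channel, had one in replicate 1 only and Cngb1 (36.5) in replicate 2 only. Gnal, the olfactory G protein, and Cnga2, Cnga4 and Ano2, channels of the same pathway, had none. Of 3 transport genes, Reep1 had peaks in both replicates (148 and 56.0), while Rtp1 and Rtp2, which carry receptors to the cell surface, had none. Of 6 genes of receptor choice, 6 had a peak in replicate 1 and 4 in replicate 2. Ldb1 (473 and 169), Kdm1a (322 and 180), Atf5 (342 and 134) and Ebf1 (80.3 and 42.6, at sites that did not overlap) had both, and Lhx2 (77.4) and Emx2 (30.0003) replicate 1 only.

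Over all families together, the share of receptor genes with a peak was at most 1.55% in either replicate with windows of 1 kb or 5 kb, with GENCODE and with genes lacking a transcript included. Over the 345 receptor start sites that lie upstream of the coding start, 2 (0.580%) and 4 (1.16%) had a peak, and over the 1119 at the coding start 9 (0.804%) in each replicate. Among the 583 receptor genes without a curated transcript, 6 (1.03%) and 4 (0.686%) had a peak within 2 kb of the 5′ end of the gene model. Only Vmn2r-ps18 and Vmn2r-ps19 had one in both, with q scores of 176 in replicate 1 and 87.5 and 57.7 in replicate 2, and these peaks overlapped exons of the zinc finger genes Zfp978 and Zfp982. With the GENCODE M21 annotation 26 (1.32%) and 21 (1.07%) of 1968 receptor genes had a peak and 5 had one in both, namely Olfr159, Olfr543, Vmn1r4, Vmn2r-ps18 and Vmn2r-ps19. At Vmn1r4 the peaks (q scores 254 and 70.4) lay over the start site of Nt5c3, and at Olfr543 they were near the threshold (30.0003 and 30.13). Within 5 kb of a RefSeq start, 5 receptors had a peak in both replicates. These were Olfr159, Olfr543, Olfr986, Olfr1358 and Olfr1361, the peaks of Olfr1358 lay on opposite sides of the start and did not overlap, and those near Olfr986 (141 and 110) covered the start site of Zfp202. Each of these peaks with a q score above 60 overlapped the start site of a gene of another kind.

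Short sequence words were described in the 250 bases before to 50 after each RefSeq start, on both strands. ACAAAG, a SOX core word, was present in 25.1% of the 1489 receptor sequences and 17.1% of the 30158 others, and ACAATG in 28.3% and 10.3%. The homeodomain words TAATTG and TAATGA, which share their first letters, were present in 20.2% and 26.9% of receptor sequences and in 6.08% and 7.63% of others. CCCNNGGG, an EBF word, was present in 3.83% and 15.8%. Over the 345 receptor starts upstream of the coding start the shares were 29.3% for ACAAAG, 24.6% for ACAATG, 25.5% for TAATTG, 34.5% for TAATGA and 7.83% for CCCNNGGG. The receptor windows are richer in A and T, and the part of this in the shares was not tested.

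ChIP-nexus gave no peak at a receptor promoter. Its lists held 110 mouse peaks in replicate 1 and 18 in replicate 2, and 0 of 1482 receptor genes had one within 2 kb of a start, which allows a share of up to 0.202%. Of the 24698 other genes, 54 had one in replicate 1 and 1 in replicate 2. The replicate 2 list is too short for 0 of 1482 receptor genes to be told apart from other genes. For replicate 1, 0 of 1482 was not tested against the 54 of 24698, and composition was not held equal. No difference from other genes is therefore drawn from either list. Inside the receptor clusters lay 7 of the 110 peaks and 0 of the 18. The clusters span 61.8 Mb, against 2293 Mb in the rest of the same chromosomes. By these values replicate 1 peaks were denser inside the clusters than in the rest, the reverse of the order in ChIP-seq. This order rests on 7 peaks and was not tested.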

How the data were processed

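Peak lists of SOX3 ChIP-seq and ChIP-nexus were used as deposited, with 1 list per replicate and no pooling. Per the study's methods, the authors aligned reads to mm10 with Novoalign (multiply mapping reads placed at random), removed duplicates with Picard and called ChIP-seq peaks with USeq against input. Columns of the deposited ChIP-seq lists are unnamed, so the meanings p score, q score (−10log10 of the adjusted p-value, threshold 30) and log2 ratio (ChIP over input, normalised by the authors) were inferred from the values. The deposited ChIP-nexus lists, made by the authors with MACS2 2.1.1, give a score, fold enrichment (a ratio), −log10 p and −log10 q, with a control not given in the sources used here. The lists hold no reads, so depth is unknown from them, and scores were compared within a list only. The study's reporting summary does give depth. There SOX3 ChIP-nexus had far fewer unique reads than SOX3 ChIP-seq in each replicate. Replicate 2 of ChIP-seq had more unique reads than replicate 1, although its list is shorter.

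Start sites were those of RefSeq curated transcripts on GRCm38.p6, and a window counted when a peak touched it by 1 bp. Shares of other start sites were weighted by class of CpG ratio (0.05 wide), with GC content added in classes of 2 points for start sites and 1 point for positions. The share of positions was computed exactly over each chromosome, or on a 500 bp grid for matched positions, so nothing was drawn at random and no p-value was computed. Overlaps were checked against bedtools 2.31.1, and the weighting was tested on simulated data (Python 3.11.15, numpy 2.4.6). Named genes were receptors with a peak in both replicates, the 5 highest q scores per replicate with ties, and fixed lists of known receptors, pathway genes and other chemoreceptor families. Members and lists were chosen with earlier results of these data known. Alternatives covered the q score, window, annotation, replicate, sequence uniqueness, neighbouring genes and composition. Samples without a list were not analysed here.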

Additional observations from a re-analysis of the deposited data

How the results depend on the processing

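No paired analysis was possible because the replicates form a single group and the results come from no test. Each difference was taken within a replicate. The alternatives by GC content, by kind of start site and with receptor genes lacking a transcript were chosen after seeing the data. Over all receptors, each mean difference stayed negative and each mean cluster ratio of ChIP-seq peaks below 1 in the alternatives run. The causes of the movements below were not tested, except that a q score above 60 leaves fewer peaks and wider windows hold more sequence.

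The mean share of receptor genes with a peak (0.877%, SD 0, so that any movement exceeded it) was 0% above a q score of 60, 0.742% within 1 kb, 1.48% within 5 kb, 1.19% with GENCODE, 0.857% for protein-coding receptors, 0.962% for windows with at least 90% unique 50-mers, 0.878% without start sites of other genes, 0.885% at GENCODE starts with a 5′ UTR, 0.882% at RefSeq starts upstream of the coding start and 0.872% with genes lacking a transcript. It was 0.877% without either replicate. The number of receptors with a peak in both replicates (1) became 0 above a q score of 60, 5 within 5 kb, 5 with GENCODE, 2 at GENCODE starts with a 5′ UTR, 0 at RefSeq starts upstream of the coding start and 3 with genes lacking a transcript.

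The difference from other start sites of equal CpG ratio (-10.7 points) was -13.5 to -7.95 without 1 replicate, -2.96 above a q score of 60, -17.2 within 5 kb, -16.7 with the CpG ratio taken in 500 bp, -2.25 with GC content also equal and -3.08 against starts at the coding start (340 sites). The difference from positions (-9.33 points) was -11.3 to -7.39 without 1 replicate, -3.39 above 60, -5.96 within 1 kb, -16.6 within 5 kb, -3.02 at equal CpG ratio, -1.0004 at equal GC content and -0.707 with both. The median q score (34.9) was 31.9 to 37.9 without 1 replicate, and above 60 no receptor peak was left. The cluster ratio (0.280) was 0.267 to 0.293 without 1 replicate, 0.417 above 60, 0.0904 with 200 kb gaps, 0.226 for peaks away from other start sites and 0.749 over positions of equal GC content. The short ChIP-nexus lists limit what that assay could show.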

Other observations

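Other chemoreceptor families were listed beside the receptors. Of 79 such genes (Taar, Fpr, Tas1r, Tas2r and Mrgpr, median CpG ratio 0.136), 5 (6.33%) had a promoter peak in each replicate and 3 in both, compared with 0.877% of receptor genes in each replicate and 66.4% and 57.9% of all genes other than receptors. None of 6 Fpr genes had one, and 1 of 15 Taar genes did, Taar5 in replicate 1 (q score 34.1). Among 35 bitter taste receptors (Tas2r), Tas2r126 alone had one, in replicate 1 (31.4). Of 3 Tas1r genes, 2 had peaks in both replicates, Tas1r1 (224 and 109.7, CpG ratio 0.493) and Tas1r3 (32.6 and 37.7, at sites that did not overlap). Mrgpre, a Mas-related receptor, had peaks of 46.3 and 50.01, and Mrgprf (31.2) and Mrgprg (36.6) had one in replicate 2 only.

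In 3 cases receptors within 50 kb of each other had a peak in different replicates. Olfr315 (replicate 1) and Olfr314 (replicate 2) start 8.05 kb apart on chromosome 11, Olfr95 and Olfr94 13.9 kb apart on chromosome 17, and Olfr1342 and Olfr1339 44.1 kb apart on chromosome 4. In each of these windows at least 98.9% of 50-mers were unique. These pairs were picked after their values were seen, and no comparison value was computed.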
